A study of Mus musculus with 70 samples.

Results

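The genes described here are the ER chaperones and the unfolded protein response, 32 genes taken by symbol from the known membership of the pathway out of 55487 named gene lines in each count table. They fall into 4 arms: 14 chaperones and folding enzymes, 5 stress sensors and transcription factors, 8 genes downstream of the transcription factors ATF4 and CHOP, and 5 genes of ER-associated degradation. RNA was sequenced from cells flow-sorted out of B16F10 flank tumors, a mouse melanoma line, into a CD45- fraction (tumor and tumor-supporting cells) and a CD45+ fraction (immune cells). The hosts were male and female C57BL/6 mice, bought at 6 to 8 weeks of age, that carried a tumor on each flank. On day 10 a tumor on one side received sham or partial histotripsy, a focused ultrasound ablation that breaks up tissue mechanically without heat, and tumors were collected 3 or 7 days later. "Control" tumors came from sham-treated mice, "histotripsy-treated" tumors were the ablated tumors, with an unablated rim left in place, and "histotripsy-abscopal" tumors were the untreated tumors on the opposite flank of treated mice. There were 70 libraries in 12 groups: in CD45- cells 4 control, 7 treated and 7 abscopal libraries at day 3 and 11, 3 and 4 at day 7, and in CD45+ cells 4, 6 and 7 at day 3 and 10, 3 and 4 at day 7.

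The endoplasmic reticulum folds secreted and membrane proteins, and its chaperones hold unfolded chains until they mature. When unfolded protein accumulates, 3 sensors in the ER membrane respond: IRE1 (Ern1) splices Xbp1 mRNA, ATF6 is cut to release a transcription factor, and PERK (Eif2ak3) phosphorylates eIF2alpha, which slows translation and favors that of Atf4. XBP1 and ATF6 raise the chaperone and degradation genes. ATF4 raises CHOP (Ddit3) and genes of amino acid supply, and it also answers to amino acid shortage and other stresses through kinases outside the ER, so its targets are not specific to protein folding.

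XBP1 and ATF6 act through the ER stress response element, and ATF4 through the C/EBP-ATF response element, so the RefSeq promoters of the members were searched for these letters. A promoter was the stretch from 250 bases before to 50 bases after the start of transcription (GRCm38.p6), and 29 of the 32 members had an entry in the table of 32851 promoters. The ER stress response element was searched on both strands as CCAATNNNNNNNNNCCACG and was found in 9 of the 29 (31%), against 0.119% of all promoters. Those of 6 chaperone genes are shown because they are the sequence these promoters share, and Creld2, Syvn1 and Derl3 held the others. Capitals mark the fixed letters, and each is read 5′ to 3′ on the strand that matched.
Hspa5: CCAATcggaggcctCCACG
Hsp90b1: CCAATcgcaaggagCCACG
Hsp90b1: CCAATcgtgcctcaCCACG
Calr: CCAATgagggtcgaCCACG
Canx: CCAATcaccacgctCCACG
Pdia6: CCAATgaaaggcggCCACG
Dnajc3: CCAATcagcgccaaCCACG
The Hspa5 site lies at chr2:34772025-34772043 on the plus strand and begins 65 bases before the start, in the promoter of BiP (Hspa5), the main HSP70 chaperone of the ER. The Hsp90b1 promoter, of the HSP90 chaperone GRP94, holds a pair of sites, chr10:86705638-86705656 read on the minus strand and chr10:86705533-86705551 read on the plus strand. The second form of the element, ATTGGNCCACG, was found in 2 of the 29 (6.9%, against 0.0365% of all promoters), Dnajb11 at chr16:22857852-22857862 and Herpud1 at chr8:94386377-94386387, both on the plus strand.
Dnajb11: ATTGGcCCACG
Herpud1: ATTGGgCCACG
The XBP1-binding element TGACGTGG was in 0 of the 29 (0.676% of all promoters). The C/EBP-ATF element, TGATGNAA, was in 5 of the 29 (17.2%, against 3.97%): Trib3, Chac1, Asns, Nupr1 and Herpud1. No matches overlapped within a member's promoter.

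Among the members that passed the test in any comparison below, Chac1 alone had a match to any of these letters, the C/EBP-ATF element at chr2:119351049-119351056, read on the minus strand. The 250 bases before the start are given for it and for Dnajb9 and Sesn2, the other members called more than once, with the element in capitals and the sequence on the strand of the gene. They are chr2:119350992-119351241 (plus strand), chr12:44210069-44210318 (minus strand) and chr4:132510457-132510706 (minus strand).
Chac1: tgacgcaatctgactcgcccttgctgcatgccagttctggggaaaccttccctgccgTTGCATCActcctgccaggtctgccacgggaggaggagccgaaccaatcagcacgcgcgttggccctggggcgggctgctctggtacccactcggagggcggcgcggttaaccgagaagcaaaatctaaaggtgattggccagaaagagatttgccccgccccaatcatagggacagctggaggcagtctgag
Dnajb9: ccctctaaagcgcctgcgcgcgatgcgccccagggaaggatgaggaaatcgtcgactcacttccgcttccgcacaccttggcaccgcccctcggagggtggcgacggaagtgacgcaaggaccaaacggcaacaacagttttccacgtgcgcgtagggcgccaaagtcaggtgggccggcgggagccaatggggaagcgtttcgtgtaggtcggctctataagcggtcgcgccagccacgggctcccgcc
Sesn2: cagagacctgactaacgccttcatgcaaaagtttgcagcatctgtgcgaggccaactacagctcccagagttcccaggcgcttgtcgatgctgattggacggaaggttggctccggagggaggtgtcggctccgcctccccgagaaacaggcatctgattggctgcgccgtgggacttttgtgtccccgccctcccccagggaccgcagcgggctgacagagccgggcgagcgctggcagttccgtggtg
A match is a description of letters, not of a bound site.

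Levels are CPM, the counts of a gene scaled to the same library size in every sample, with edgeR's TMM factors within a table unless stated. A gene was called when its Benjamini-Hochberg adjusted p in edgeR's quasi-likelihood test over all genes of the table was under 0.05, and log2 fold changes carry their SE. Library totals ran from 887798 to 3820705 counts. CD45 itself (Ptprc) had 0 to 3 counts in each CD45- library and 655 to 1227 CPM in each CD45+ library, and the summed melanocyte markers of the day 3 CD45- libraries reached 24428 to 37792 CPM. All of the members but Derl3 passed the filter on low counts in every table, so 31 were tested. Derl3, a degradation channel subunit, reached at most 6.86 CPM in CD45+ cells. The labels do not say whether the replicates of a group came from separate mice, so p-values measure only the spread between these samples. For the day 3 CD45- data the paper's captions give fewer mice per group than there are treated or abscopal libraries. In sorted bulk samples a shift in the share of a cell type and a shift in RNA per cell cannot be told apart. The 3 comparisons of a table share libraries (treated and abscopal tumors the same controls, and both treated comparisons the same treated libraries), so they are not independent. The labels do not tie treated to abscopal libraries of the same mouse, so that comparison was made without pairing.

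In control tumors the fractions differed most in Trib3, Chac1, Asns and Ppp1r15a of the ATF4 and CHOP arm, among the 31 members that passed the filter. In CPM of the library total at day 7, Trib3, a pseudokinase induced by ATF4 and CHOP, averaged 82.7 ± 17.7 (SD, n = 11) in CD45- and 7.87 ± 3.13 (n = 10) in CD45+ libraries, 10.5-fold apart. Chac1, a glutathione-degrading enzyme, was 10.1-fold higher in CD45- cells and Asns, asparagine synthetase, 9.95-fold higher. The order was opposite for Ppp1r15a (GADD34), which directs the phosphatase that reverses eIF2alpha phosphorylation: 13.9 ± 2.72 CPM in CD45- against 106 ± 23.5 CPM in CD45+ libraries. None of these ranges overlapped. In the rest of the arm Psat1 was 2.32-fold higher in CD45- cells without overlap. Ddit3, Sesn2 and Nupr1 overlapped (1.38-, 1.10- and 0.66-fold, CD45- over CD45+). Among the chaperones Pdia4 was 4.43-fold, Sdf2l1 2.51-fold and Canx (calnexin) 2.43-fold higher in CD45- cells without overlap, while Hspa5 (2188 ± 310.5 and 2407 ± 427 CPM) and Calr (calreticulin, 750 ± 100.3 and 746 ± 60.8 CPM) overlapped. In all, the ranges were apart for 13 of 31 members at day 7 (41.9%, 11 of them higher in CD45- cells) and 18 of 31 at day 3 (58.1%, 14 higher in CD45- cells). Of all genes 48.3% and 62.8% were apart in the same way, so the share for the members is near the background.

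**Figure D1:**
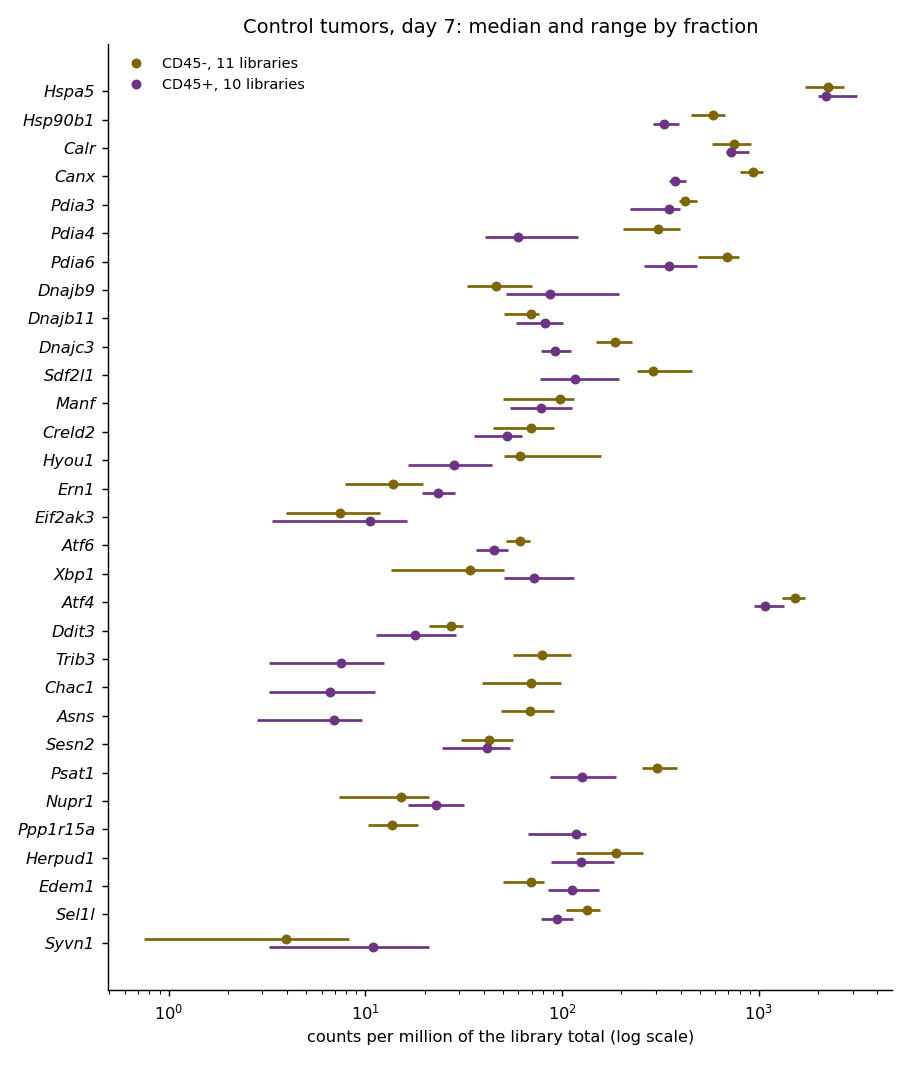
Levels of the 31 tested members in day 7 control tumors, in CPM of the library total on a log axis. Points are medians and lines run from the lowest to the highest of 11 CD45- or 10 CD45+ libraries. Trib3, Chac1 and Asns sit about 10-fold higher in CD45- cells and Ppp1r15a 7.66-fold higher in CD45+ cells.

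The CD45+ cells of treated tumors at day 3 were the setting with called members. Dnajb9, Sesn2, Chac1, Atf4 and Ppp1r15a were higher than in control tumors, 5 of 31 members and all in the same direction, while 7.79% of all genes tested were called (637 higher and 163 lower). Of the 8 genes of the ATF4 and CHOP arm 3 were called, with a median log2 fold change of 0.56 over the arm and a range from -0.55 (Psat1) to 1.43 (Chac1). Of the 14 chaperones 1 was called, Dnajb9, and 5 had a positive fold change, with a median of -0.10. The difference between arms was not tested. Over the 31 members the median was 0.02, beside -0.01 over all genes.

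Dnajb9 (chr12:44205559-44210326, minus strand, GRCm38), an HSP40 co-chaperone of BiP that also restrains IRE1, was at 48.5, 49.5, 59.9 and 75.8 CPM in the control libraries. In the 6 treated libraries it was at 86.3, 117 and 288 CPM (lowest, median and highest), and in the 7 abscopal libraries at 47.1, 67.0 and 89.4 CPM. Every treated library was above every control library, with 2 of them, replicates 3 and 6, far above the other 4 at 257 and 288 CPM. The log2 fold change was 1.43 ± 0.32 against control tumors (edgeR adjusted p = 0.00908) and 1.20 ± 0.26 against abscopal tumors (edgeR adjusted p = 0.00817).

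Sesn2 (chr4:132492032-132510501, minus strand), a stress-induced inhibitor of mTORC1, was at 21.9, 22.4, 27.6 and 23.5 CPM in control libraries. It was at 31.0, 46.9 and 115 CPM in treated libraries and at 27.4, 34.4 and 38.4 CPM in abscopal libraries (lowest, median and highest). Treated and control libraries did not overlap, and the abscopal libraries lay between and overlapped both. The log2 fold change was 1.24 ± 0.26 against control (edgeR adjusted p = 0.00687) and 0.78 ± 0.21 against abscopal tumors (edgeR adjusted p = 0.0346).

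Chac1 (chr2:119351229-119354381, plus strand), whose printed promoter holds the C/EBP-ATF element, was sparse in this fraction: the control libraries held 6 to 10 counts each, or 5.49, 5.10, 5.87 and 3.36 CPM. Treated libraries were at 3.05, 13.7 and 21.9 CPM and abscopal libraries at 3.71, 5.87 and 8.80 CPM (lowest, median and highest). Of the treated libraries 5 were above every control and abscopal library, and replicate 5 was below all of the controls. The log2 fold change was 1.43 ± 0.39 against control (edgeR adjusted p = 0.0275) and 1.13 ± 0.32 against abscopal tumors (edgeR adjusted p = 0.0378).

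Atf4 itself (chr15:80255184-80257541, plus strand) was at 1175, 1141, 1020 and 858 CPM in control libraries and at 1282, 1429 and 1927 CPM in treated libraries (lowest, median and highest). The groups did not overlap, and the change was small, 0.51 ± 0.15 on the log2 scale (edgeR adjusted p = 0.0358). Since ATF4 is controlled mainly at translation, its mRNA is not a readout of the protein. Against abscopal tumors (982, 1168 and 1288 CPM) the log2 fold change was 0.35 (edgeR adjusted p = 0.113).

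Ppp1r15a (chr7:45522916-45526268, minus strand) was at 79.6, 78.5, 68.1 and 78.4 CPM in control libraries and at 76.3, 135 and 206 CPM in treated libraries (lowest, median and highest). Of the treated libraries 5 were above all of the controls and replicate 1 was within their range. The log2 fold change was 0.87 ± 0.25 (edgeR adjusted p = 0.0373), and it was 0.66 against abscopal tumors (edgeR adjusted p = 0.0751). An exon of Tulp2 overlaps Ppp1r15a on the other strand and Mir5627 overlaps Dnajb9 in the same way; whether counting used the strand is not given in the sources used here.

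**Figure D2:**
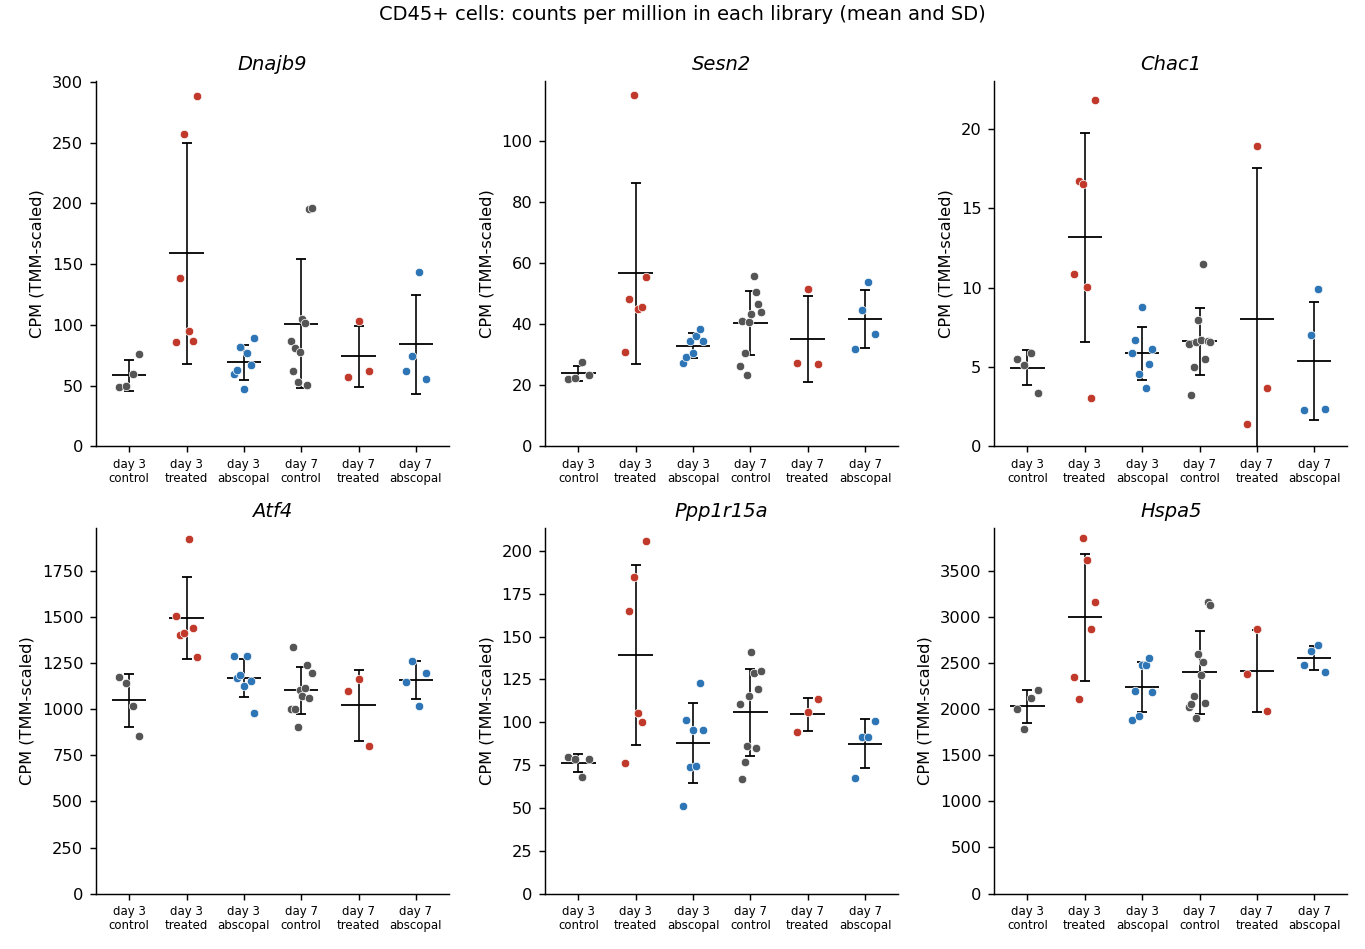
CPM in every CD45+ library for the 5 called members and Hspa5, by day and group. Points are libraries, horizontal lines means and bars SD. At day 3 the treated libraries (red) of Dnajb9, Sesn2 and Atf4 sit above all 4 control libraries (grey), and at day 7 the treated libraries lie within the control range or below it, apart from 1 treated library of Chac1 at 18.9 CPM.

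Other members of the same pathway did not pass the test. Hspa5 was at 2001, 1788, 2123 and 2203 CPM in control libraries and at 2105, 3014 and 3856 CPM in treated libraries (0.56 ± 0.17, edgeR adjusted p = 0.0515). The CHOP gene Ddit3 had a log2 fold change of 0.59 (edgeR adjusted p = 0.128), and Sel1l, the scaffold of the degradation complex, 0.42 (edgeR adjusted p = 0.127) with no overlap between groups. The ATF4 targets did not share a direction: Trib3 was at 0.31, Asns at -0.01 and the serine synthesis enzyme Psat1 at -0.55, all short of the threshold. Pdia3, a disulfide isomerase of glycoprotein folding, was at -0.36 (edgeR adjusted p = 0.149) and Xbp1 at 0.00. These are counts per gene, so the splicing of Xbp1 was not measured.

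The calls differed in how far they rested on single libraries. With each of the 10 control and treated libraries left out in turn, Dnajb9 and Sesn2 were called in 10 of 10 fits. Chac1 was called in 4 of 10 (log2 fold change 1.22 to 1.65, edgeR adjusted p 0.00168 to 0.12; lost without treated replicate 2, 3 or 6 or control replicate 2, 3 or 4). Atf4 was called in 5 of 10 (0.43 to 0.57, edgeR adjusted p 0.0344 to 0.154; lost without treated replicate 1 or 4 or control replicate 2, 3 or 4). Ppp1r15a was called in 3 of 10 (0.73 to 0.997, edgeR adjusted p 0.0128 to 0.121; lost without treated replicate 2, 3 or 6 or any control replicate). With treated replicates 3 and 6 both left out, a choice made after the values were seen, Dnajb9 was at 0.79 (edgeR adjusted p = 0.0433), Sesn2 at 0.84 (edgeR adjusted p = 0.0145) and Atf4 at 0.59 (edgeR adjusted p = 0.0361), and no other member was called. Scaling by library totals instead of TMM moved the median of all genes to -0.22 and the calls over all genes to 414 higher and 663 lower. On that scale Dnajb9, Sesn2 and Chac1 were still higher, Pdia3 was called lower, and Atf4 (0.30, edgeR adjusted p = 0.206) and Ppp1r15a (0.62, edgeR adjusted p = 0.0791) were not called.

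Cell type markers also differed between treated and control tumors. The 7 neutrophil markers summed to 337, 1397 and 2471 CPM in control libraries (lowest, median and highest) and to 1242, 4672 and 34976 CPM in treated libraries, and 5 of them were called higher. The highest neutrophil sum was in treated replicate 3, which also had the highest Sesn2. The next was in treated replicate 2 (8679 CPM), whose Dnajb9 was far below that of treated replicate 6 (neutrophil sum 4817 CPM). The 6 T cell markers summed to 1156, 1180 and 1486 CPM in control and to 353, 731 and 1006 CPM in treated libraries, with 2 called lower, and the 5 plasmacytoid dendritic cell markers to 128, 136 and 146 CPM in control and to 32.9, 46.9 and 95.0 CPM in treated libraries, with 4 called lower. No defining marker of these 3 lists was at 0 throughout a group. Treated replicates 1 and 5 had neutrophil sums inside the control range, 2058 and 1242 CPM, with T cell sums (654 and 1006 CPM) and plasmacytoid dendritic cell sums (48.6 and 39.6 CPM) below every control library, and Dnajb9 at 86.3 and 86.5 CPM. The part of the changed cell makeup in the values of Dnajb9 and the other members was not tested.

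Against abscopal tumors at day 3, 3 of 31 members were called in CD45+ cells (Dnajb9, Sesn2 and Chac1, all higher in treated tumors), beside 5.44% of all genes. The count was 1, Dnajb9, with library totals (Sesn2 and Chac1 at edgeR adjusted p = 0.0677 and 0.0682) and with only the 2 groups in the fit (0.0739 and 0.0684). Dnajb9 was called in 13 of 13 fits that left out 1 library, Sesn2 in 5 of 13 and Chac1 in 4 of 13. Sesn2 was lost without treated replicate 3 (0.45, edgeR adjusted p = 0.12) or 6 or abscopal replicate 1, 2, 3, 4, 5 or 7, and Chac1 without treated replicate 2, 3 or 6 (0.93, edgeR adjusted p = 0.119) or abscopal replicate 1, 2, 3, 5, 6 or 7. The count was 1, Dnajb9, without treated replicate 3 or 6 or abscopal replicate 2, 3, 5 or 7, and it was 0 without both treated libraries 3 and 6 (Dnajb9 0.56, edgeR adjusted p = 0.164). The groups overlapped for all 3 genes. In abscopal against control tumors, 0 of 31 members and 0% of all genes were called by edgeR (0 members and 796 genes had an unadjusted p under 0.05, and DESeq2 called 12 genes), with Sesn2 at 0.46, Asns at 0.50 and Dnajb9 at 0.23 on the log2 scale.

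**Figure D3:**
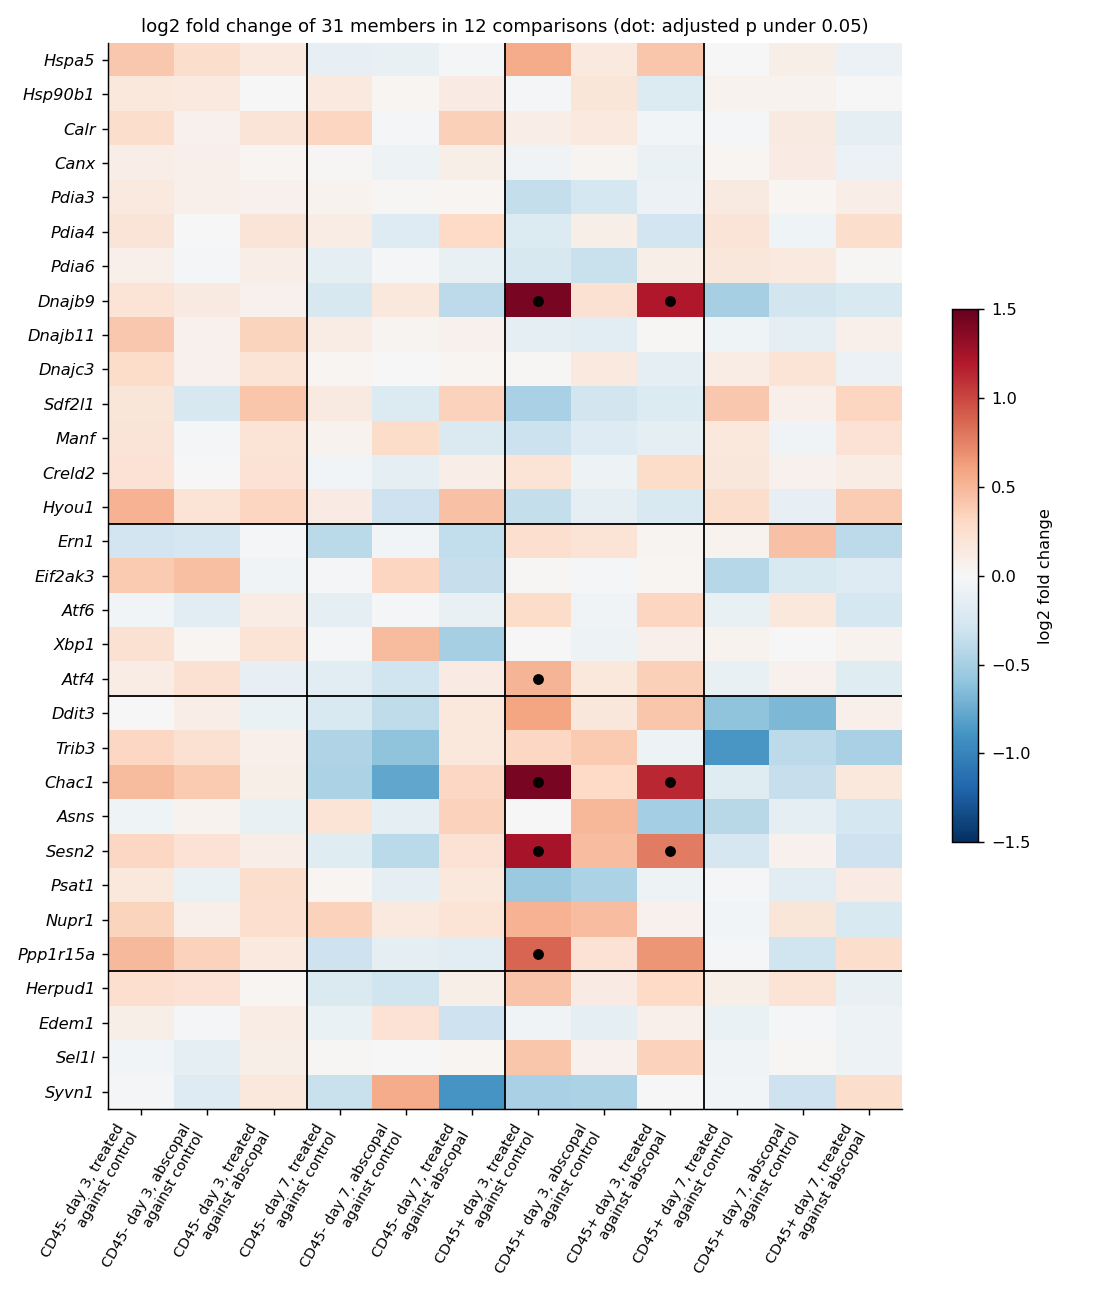
Log2 fold change (color, cut at 1.5 on either side) of the 31 tested members in the 12 comparisons, ordered by arm from chaperones at the top to ER-associated degradation at the bottom, with black lines between arms and between tables. Dots mark called members: 5 in treated against control and 3 in treated against abscopal CD45+ cells at day 3, and no others.

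By day 7 the CD45+ differences were not detected. In each of the 3 comparisons edgeR called 0 of 31 members and 0% of all genes, and DESeq2 called none either. In data simulated with a set spread for treated against control tumors, 19 of 100 genes changed by 1 on the log2 scale were called. A change of that size could therefore be missed. With unadjusted p under 0.05 there were 0, 2 and 1 members and 341, 806 and 291 genes in treated against control, abscopal against control and treated against abscopal tumors. Dnajb9 was at 50.6, 84.2 and 196 CPM in the 10 control libraries (lowest, median and highest) and at 57.3, 103 and 62.3 CPM in the 3 treated libraries, which lay inside the control range. Sesn2 was at 23.5, 42.3 and 55.8 CPM in control and at 27.2, 51.5 and 27.0 CPM in treated libraries, again inside it. In treated against control tumors 0 of 8 genes of the ATF4 and CHOP arm had a positive fitted log2 fold change (median -0.22, -0.01 over all genes), and 11 of 14 chaperones did (median 0.12). Chac1 averaged 8.01 CPM in treated and 6.62 CPM in control libraries, so the sign of its group means was opposite to the fitted -0.18. The 2 members with an unadjusted p under 0.05 in abscopal tumors were Ern1 at 0.45 (edgeR adjusted p = 0.542) and Ddit3 at -0.67 (edgeR adjusted p = 0.647).

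The change of the treatment difference between days was tested as an interaction over both tables. Dnajb9 differed between days by -1.89 ± 0.53 on the log2 scale (edgeR adjusted p = 0.0433) and Sesn2 by -1.46 ± 0.38 (edgeR adjusted p = 0.0278), the negative sign meaning a smaller difference at day 7. These were 2 of 31 members, beside 2.68% of all genes. Control levels were higher at day 7: in CPM of the library total Dnajb9 averaged 63.5 at day 3 and 101 at day 7, and Sesn2 26.0 and 40.3. Neutrophil markers had median sums of 1397 CPM (control) and 4672 CPM (treated) at day 3, and of 2663 and 2018 CPM at day 7. The part of either in the interaction was not tested. Atf4 at -0.60 (edgeR adjusted p = 0.082), Ddit3 at -1.16 (edgeR adjusted p = 0.114) and Chac1 at -1.56 (edgeR adjusted p = 0.236) did not pass. With library totals Dnajb9 was not called (edgeR adjusted p = 0.0711, Sesn2 0.0452), and with the replicate number as a block neither was (edgeR adjusted p = 0.149 and 0.14). The number joins libraries of different days and of sham and treated mice, so this block matches no known unit of the design. Both calls also depended on single libraries. With each day 3 control and day 7 treated library left out in turn, Dnajb9 and Sesn2 were each called in 2 of 7 fits (edgeR adjusted p 0.0334 to 0.183 and 0.0108 to 0.154): the count of members called was 0 without day 3 control replicate 1 or 2 or day 7 treated replicate 1 or 3, 1 without day 3 control replicate 3 or 4, and 4 without day 7 treated replicate 2. For abscopal tumors 0 of 31 members and 0% of all genes were called (1 member and 729 genes with an unadjusted p under 0.05 in edgeR, and 0 genes in DESeq2).

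In CD45- cells at day 3 the chaperones of treated tumors all had small positive fold changes and none passed the test. All of the 14 chaperones and folding enzymes had a positive fold change against control tumors, from 0.08 to 0.52 with a median of 0.20, beside 0.01 over all genes, of which 52.1% were positive. Over all members 25 of 31 were positive. EdgeR called 0 of 31 members beside 0.0916% of all genes, and DESeq2 called none of the members either. An unadjusted p under 0.05 was reached by 6 of 31 (19.4%, against 10.6% of all genes): Hspa5, Calr, Dnajb11, Dnajc3, Hyou1 and Ppp1r15a. Genes of a pathway do not vary independently, so the count of positive signs is a description.

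Hspa5 was at 1688, 1951, 1729 and 2003 CPM in control libraries and at 1950, 2574 and 2905 CPM in the 7 treated libraries (lowest, median and highest), and the groups overlapped (0.41 ± 0.14, edgeR adjusted p = 0.288). Hsp90b1 was at 529, 541, 480 and 549 CPM in control and at 502, 577 and 679 CPM in treated libraries (0.16 ± 0.10, edgeR adjusted p = 0.658). Of the treated libraries several exceeded every control library for both genes, and the lowest lay inside the control range.

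The BiP co-chaperones Dnajb11 (0.41 ± 0.13, edgeR adjusted p = 0.254) and Dnajc3 (0.27 ± 0.10, edgeR adjusted p = 0.323) lay in the same range, and Dnajc3 was the only member whose treated and control libraries did not overlap, with the highest control and the lowest treated library both at 182 CPM. In CPM of the library total its groups overlapped, from 147 to 183 CPM in control and from 178 to 241 CPM in treated libraries. Hyou1, a large ER chaperone and nucleotide exchange factor, had the largest log2 fold change of the members, 0.52 ± 0.22 (edgeR adjusted p = 0.405).

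The sensors and transcription factors showed no shared direction. Xbp1 was at 41.9, 41.5, 40.8 and 31.5 CPM in control and at 28.4, 47.5 and 61.3 CPM in treated libraries (0.23 ± 0.17, edgeR adjusted p = 0.71). Atf4 was at 1451, 1359, 1214 and 1406 CPM in control and at 1178, 1432 and 1796 CPM in treated libraries (0.11 ± 0.15, edgeR adjusted p = 0.882). In both genes the control range lay inside the treated range.

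In the ATF4 and CHOP arm 6 of 8 genes were positive, with a median of 0.31. Ddit3 was at 26.7, 34.3, 28.8 and 31.5 CPM in control and at 23.5, 31.6 and 37.0 CPM in treated libraries (0.00 ± 0.16). Trib3 was at 54.0, 49.7, 78.8 and 79.6 CPM and at 42.1, 78.4 and 174 CPM (0.31 ± 0.30, edgeR adjusted p = 0.798). Treated replicate 7 stood alone at the top for Trib3.

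Chac1 was at 33.6, 37.7, 55.2 and 65.0 CPM in control and at 40.0, 69.4 and 100.1 CPM in treated libraries (0.48 ± 0.27, edgeR adjusted p = 0.562). Asns was at 65.4, 72.0, 66.0 and 77.9 CPM and at 56.5, 66.7 and 83.6 CPM (-0.06 ± 0.14, edgeR adjusted p = 0.942). Herpud1, an ER membrane protein of the degradation complex whose promoter holds both kinds of element, was at 154, 143, 202 and 186 CPM and at 153, 210 and 232 CPM (0.25 ± 0.14, edgeR adjusted p = 0.589). All 3 genes overlapped between the groups.

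**Figure D4:**
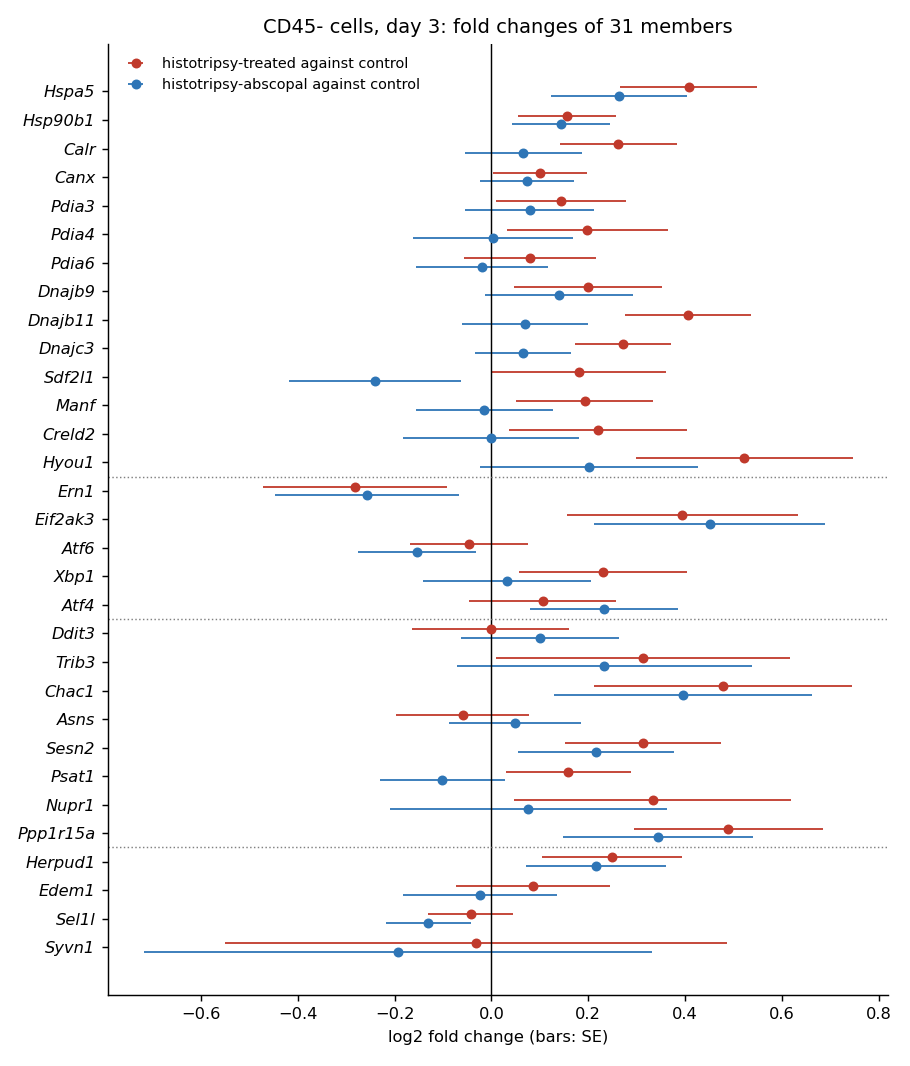
Log2 fold change against control tumors of the 31 tested members in CD45- cells at day 3, for treated (red) and abscopal (blue) tumors, with bars of 1 SE and dotted lines between arms. All 14 chaperones of treated tumors lie right of 0 (0.08 to 0.52), and no member was called.

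Fibroblast markers had positive fold changes in the same comparison, and the groups overlapped. The 6 markers summed to 17.0, 189 and 1076 CPM in control libraries (lowest, median and highest), to 53.4, 2088 and 13923 CPM in treated and to 143, 519 and 795 CPM in abscopal libraries. All 6 had an unadjusted p under 0.05 in treated against control tumors and none was called, and no marker was at 0 throughout a group. Treated replicates 4, 5 and 7, at 53.4, 240 and 1068 CPM, lay inside the control range. Neutrophil markers summed to at most 6.62 CPM in any of these libraries. The part of the fibroblast RNA in the chaperone values was not tested.

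In abscopal against control CD45- cells at day 3, 0 of 31 members and 0% of all genes were called by edgeR (0 members and 567 genes with an unadjusted p under 0.05, 13 genes by DESeq2), and 10 of 14 chaperones had a positive fold change with a median of 0.07. In treated against abscopal tumors 0 of 31 members were called beside 0.147% of all genes, and 14 of 14 chaperones were positive with a median of 0.20, from the same treated libraries as above. Sdf2l1, a co-chaperone of BiP complexes, had the largest value there, 0.42 (edgeR adjusted p = 0.206), and Dnajb11 was at 0.34 (edgeR adjusted p = 0.153). By promoter, the 10 tested members with either form of the ER stress response element had a median of 0.24 in treated against control tumors (9 positive). The 5 with the C/EBP-ATF element, with Herpud1 in both classes, had 0.31 (4 positive). The 14 with none of the letters searched had 0.17 (11 positive). The differences between these classes were not tested.

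At day 7 in CD45- cells of abscopal tumors, the ATF4 arm had negative fold changes that fell short of the threshold. In abscopal against control tumors 0 of 31 members were called beside 0.291% of all genes, and 8 of 31 had an unadjusted p under 0.05 (25.8%, against 9.56% of all genes): Chac1, Trib3, Atf4, Ddit3, Sesn2 and Herpud1 with negative and Xbp1 and Manf with positive fold changes. In the ATF4 and CHOP arm 1 of 8 genes was positive and the median was -0.27, while the chaperones had a median of -0.02 and all genes of -0.01.

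Chac1 was at 41.9, 68.0 and 95.0 CPM in the 11 control libraries (lowest, median and highest) and at 23.8, 29.0, 65.9 and 36.6 CPM in the 4 abscopal libraries (-0.78 ± 0.20, edgeR adjusted p = 0.0956). Abscopal replicate 3 lay in the middle of the control range and the other 3 below all of it. Trib3 was at 60.3, 78.2 and 111 CPM in control and at 38.1, 45.5, 69.0 and 66.4 CPM in abscopal libraries (-0.61 ± 0.16, edgeR adjusted p = 0.116). Without abscopal replicate 3, both Chac1 and Trib3 were called, so the count of members was 2.

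Atf4 was at 1294, 1502 and 1679 CPM in control and at 1092, 1259, 1248 and 1298 CPM in abscopal libraries (-0.30 ± 0.08, edgeR adjusted p = 0.143), and the groups met only at 1294 and 1298 CPM. Xbp1 went the other way, at 14.8, 33.9 and 49.1 CPM in control and at 51.1, 48.4, 49.1 and 50.6 CPM in abscopal libraries (0.48 ± 0.16, edgeR adjusted p = 0.264). The abscopal libraries were close to each other and at the top of the control range. Fibroblast markers summed to 16.2, 58.8 and 764 CPM in control and to 67.7, 884 and 2482 CPM in abscopal libraries, and their part in these values was not tested.

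**Figure D5:**
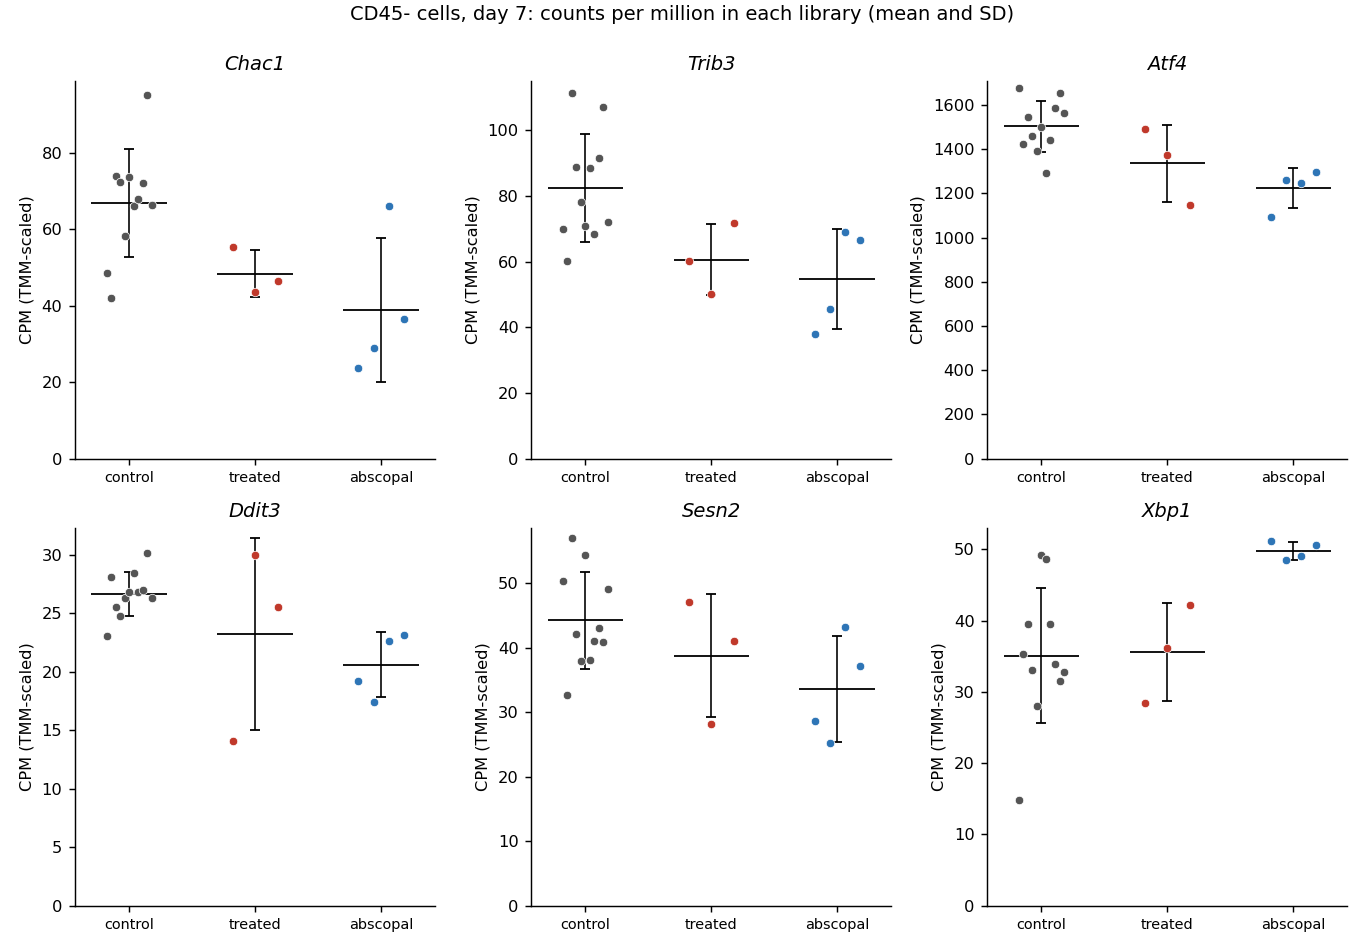
CPM in every CD45- library at day 7 for 6 members, by group. Points are libraries, horizontal lines means and bars SD. Of the 4 abscopal libraries (blue), 3 of Chac1 lie below all 11 control libraries (grey) and all of Xbp1 lie at the top of the control range. None was called.

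In treated against control CD45- cells at day 7, 0 of 31 members and 0% of all genes were called by edgeR, with 3 members and 669 genes at an unadjusted p under 0.05 and 0 genes called by DESeq2. The 3 members were Trib3 (-0.45), Chac1 (-0.47) and Calr (0.33). Trib3 was at 60.1, 49.99 and 71.8 CPM and Chac1 at 55.3, 43.5 and 46.3 CPM in the treated libraries, inside the lower part of the control range or below it. In treated against abscopal tumors 0 of 31 members and 0% of all genes were called (4 members and 741 genes with an unadjusted p under 0.05 in edgeR, 0 genes in DESeq2). Between days, the treated difference changed in a called way in 0 of 31 members and 0% of all genes (5 members and 695 genes with an unadjusted p under 0.05 in edgeR, 11 genes by DESeq2), with 4 of 31 members above 0 and a median of -0.22 (-0.01 over all genes). The abscopal difference changed in 0 of 31 members beside 0.00866% of all genes. Chac1 had the largest change there, -1.18 ± 0.36 (edgeR adjusted p = 0.528).

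Of 122 other genes of the pathway, listed in 5 groups, 121 had a line in the tables. In CD45+ cells at day 3, treated against control, the cystine transporter Slc7a11, an ATF4 and NRF2 target, had the largest change: 50.3, 99.3 and 161 CPM in control (lowest, median and highest) against 206, 457 and 1614 CPM in treated libraries, with no overlap (2.56 ± 0.46, edgeR adjusted p = 0.00266). It was also higher against abscopal tumors (2.295, edgeR adjusted p = 0.00105), and its difference was smaller at day 7 (-2.90, edgeR adjusted p = 0.0273). The list of tested amino acid and tRNA synthetase targets of ATF4, which includes Slc7a11, did not follow as a whole. Of its genes 10 of 28 were positive, the median was -0.17, and the serine enzyme Psph was called lower (-0.72, edgeR adjusted p = 0.0358). Among 16 tested sensors and regulators, Cebpb (0.69, edgeR adjusted p = 0.034) and Nfe2l2, which encodes NRF2 (0.69, edgeR adjusted p = 0.044), were called higher and the ATF6 relative Atf6b lower (-0.63, edgeR adjusted p = 0.0304).

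Of 19 folding and redox enzymes in the same comparison, the ER selenoprotein Selenom was called higher (1.40, edgeR adjusted p = 0.0345, at 1.83 to 5.28 CPM in control libraries) and the cargo receptor Lman1 lower (-0.58, edgeR adjusted p = 0.0115). Neither the 22 translocon and signal peptidase genes (4 positive, median -0.14) nor the 14 other degradation genes (7 positive, median 0.00) held a call. In CD45- cells at day 3, treated against control, the stress transcription factor Atf3 was the only call among these genes. It was at 45.6, 54.2 and 62.4 CPM in control and at 86.1, 134 and 149 CPM in treated libraries, with no overlap (1.21 ± 0.22, edgeR adjusted p = 0.0272). There the translocon genes were positive in 19 of 22 (median 0.13) and the other degradation genes in 14 of 15 (median 0.14), the folding and redox enzymes in 13 of 22 (median 0.11), and the ATF4 amino acid targets in 23 of 35 (median 0.02). At day 7 in abscopal against control CD45- cells 7 of 35 of those ATF4 targets were positive (median -0.06) and none was called.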

How the data were processed

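RNA of sorted CD45- and CD45+ tumor cells was made into QuantSeq libraries, which read the 3′ ends of transcripts. The authors deposited whole-number counts per gene in 4 tables, 1 per fraction and day. Per the labels and the submitters' processing notes these came from bcl2fastq, Trim Galore 0.5.0, STAR 2.6.0 and featureCounts on GRCm38, with reads collapsed by molecular identifier. The strand setting is not given in the sources used here. A line with no gene name, equal to the column total in 34 of 34 CD45+ columns, was left out. The counts were not changed before testing.

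Counts were fitted per table with edgeR 4.0.16 (R 4.3.3): TMM scaling, filterByExpr (count minimum 10, total minimum 15), the quasi-likelihood test with 1 term for each of the 3 groups, and Benjamini-Hochberg adjustment over all genes tested (threshold 0.05). Interactions between days were fitted on both tables of a fraction. DESeq2 1.42.0, library totals, no filter, fits of only the 2 groups, replicate blocks and leaving out single libraries were the alternatives. The scripts were tested on simulated data. Between control fractions, ranges of CPM of the library total were compared with no test.

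All 32 members were counted. Members called in a comparison and, in day 3 CD45- treated against control tumors, 9 further genes were given with their values by library (for groups of more than 5 libraries, the lowest, median and highest). Other members were named by the smallest unadjusted p or as the largest value of a comparison, after their values were seen. The members, the 5 pathway lists and the 14 marker lists were chosen with earlier results of these data known. Library totals of 887798 to 3820705 counts limit the precision of genes near 10 counts, such as Chac1 in CD45+ cells. No pair of replicates agreed within counting error (208 pairs, lowest ratio of chi-square to its degrees of freedom 1.99).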

Additional observations from a re-analysis of the deposited data

Results flagged for a closer look

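Single libraries stood apart from their group for 5 of the 31 pairs of gene and group examined by Dixon's test, which chance flags in about 1 in 20 groups. In day 3 CD45+ treated tumors replicate 4 was highest for Atf4, at 1927 CPM with the next library at 1505 CPM. Replicate 3 of the same group was highest for Sesn2, at 114.9 CPM with the next at 55.4 CPM. In day 3 CD45+ control tumors replicate 3 was lowest for Ppp1r15a, at 68.1 CPM with the next at 78.4 CPM. In day 3 CD45- tumors, treated replicate 7 was highest for Trib3, at 173.7 CPM with the next at 89.7 CPM, and control replicate 4 was lowest for Xbp1, at 31.5 CPM with the next at 40.8 CPM.

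The difference between treated and control CD45+ cells was smaller at day 7 than at day 3 for Dnajb9, by -1.89 on the log2 scale, and for Sesn2, by -1.46, each by edgeR's test of the interaction. Neither was called with the replicate number as a block, which joins libraries of different mice by number alone. Each was called in 2 of 7 fits that left out 1 day 3 control or day 7 treated library.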

How the results depend on the processing

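Of the counts of members called under an alternative, 219 stayed within 1.5 times the reported count and 29 did not. Of the values of single members, 231 kept their direction and side of the threshold, 63 kept the direction and were no longer called, and 9 changed sign, none of them called. Most were Ddit3 in day 3 CD45- treated against control tumors, whose reported value was slightly negative. It was at 0.00258 with library totals, 0.000759 with only the 2 groups and 0.0218 without the filter. With each replicate left out it ran from -0.0533 to 0.0598, and the positive values there were the changes of sign. The other was Trib3 in the same comparison, at -0.00662 with the replicate block. The cause was not tested for any of these. With no filter on low counts, 3 members were called in day 7 CD45- abscopal against control tumors (Chac1 and Trib3 lower, Xbp1 higher) and 1, Chac1, in the change of that difference between days. In day 3 CD45+ treated against abscopal tumors the count was 5 by DESeq2 (with Atf4 and Hspa5 added), 1 with library totals and 1 with only the 2 groups in the fit. In day 3 CD45+ treated against control tumors it was 2 with only the 2 groups and 6 by DESeq2. With treated libraries 3 and 6 both left out, chosen after seeing the data, it was 3 there and 0 against abscopal tumors. The change between days in CD45+ treated tumors gave 1 member with library totals. With single replicates left out in turn (92 fits), the count ran from 2 to 6 in day 3 CD45+ treated against control and from 1 to 4 in treated against abscopal tumors. It ran from 0 to 4 in the CD45+ change between days for treated tumors and from 0 to 2 in day 7 CD45- abscopal against control tumors. It stayed at 0 in the other comparisons. For the changes between days, only day 3 control and day 7 treated or abscopal libraries were left out.

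Same-numbered samples correlated above 0.1 in 9 of 15, 3 of 10, 7 of 14 and 5 of 10 pairs (CD45- day 3 and day 7, CD45+ day 3 and day 7), so the numbers were not taken as pairs, and whether some mark the same mouse is not known. A sample correlated best with its own number in 13 of 30, 2 of 20, 11 of 28 and 7 of 20 cases. The counts that unrelated numbers would give were not computed, so these do not decide whether a number marks a mouse. With the replicate number as a block the count of members was 5 in day 3 CD45+ treated against control tumors, 4 against abscopal tumors and 0 in the CD45+ change between days (Sesn2 -1.13, edgeR adjusted p = 0.14). This block rests on the number alone, so a call kept or lost under it does not test pairing by mouse.

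Calls over all genes moved more. In day 3 CD45- treated against control tumors there were 10, and 55 by DESeq2, 312 without the filter, 26 with the block and 2 with only the 2 groups. Against abscopal tumors there were 16, and 143, 451 and 117 by DESeq2, without the filter and with the block. In day 7 CD45- abscopal against control tumors there were 32, and 16, 398, 0 and 62 by DESeq2, without the filter, with the block and with only the 2 groups. In day 3 CD45+ treated against control tumors there were 800, and 1244 without the filter, 1256 with the block and 451 with only the 2 groups. Against abscopal tumors there were 558, and 1022 without the filter and 365 with only the 2 groups. In the CD45+ change between days there were 301, and 628 without the filter, 112 with the block and 413 by DESeq2. Members near 10 counts, Chac1 in CD45+ cells among them, are limited by depth.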
